A study of Oncorhynchus mykiss with 32 samples.

Results

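The transcripts described here encode 4 enzymes that act on phosphoinositides, glycosylphosphatidylinositol (GPI) anchors and sphingolipids. Each is followed by 1 named clone among the 9023 rainbow trout cDNA clones on a liver array. The clones were taken by name: PI42B (clone 1RT43B03_B_A02, best match the rat phosphatidylinositol-4-phosphate 5-kinase type-2 beta, a name since changed for this kinase family to phosphatidylinositol-5-phosphate 4-kinase), PIG-F (clone tcba0011.i.05, human phosphatidylinositol-glycan biosynthesis class F protein), ENPP7 (clone tcab0001.k.17, human ectonucleotide pyrophosphatase/phosphodiesterase 7, or alkaline sphingomyelinase) and CERK (clone tcba0003.a.22, human ceramide kinase). All 4 clones had a value on all 32 arrays and were among the 7763 clones that could be tested. The study's lists named a clone only where its own tests on livers of this series had picked it. Other clones of these enzymes, if the array held any, would therefore not have been found. The pick was for diet in the case of PI42B, PIG-F and ENPP7 and for line in the case of CERK. The effect of that factor on that clone is therefore not independent evidence.

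Each array held the RNA of 1 liver, with 8 livers in each of 4 groups. F-HE trout belonged to the fatty muscle line (F) and ate a high fat diet with 23% lipid, and F-LE trout belonged to the same line and ate a diet with 10% lipid. L-HE and L-LE trout belonged to the lean muscle line (L) and ate these same HE and LE diets. The F and L lines came from divergent selection on muscle fat, and all fish received their diet from first feeding for 6 months, in 3 tanks per group with 2 or 3 sampled livers per tank. Each line was 1 selected population, so that selection and other differences between the populations cannot be told apart. The HE diet had fish oil added, and it held less protein and starch and more energy than the LE diet. The amount of lipid, its kind and these other differences cannot be told apart either.

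Membrane lipids also carry signals. Phosphoinositides are phosphatidylinositols whose head group is phosphorylated by dedicated kinases, and they recruit proteins to membranes and steer vesicle traffic and insulin signalling. GPI anchors are built on phosphatidylinositol in the endoplasmic reticulum and fix many surface proteins, among them enzymes of the hepatocyte membrane. Sphingomyelinases cut sphingomyelin to ceramide, and ceramide kinase turns ceramide into ceramide 1-phosphate, so that ENPP7 and CERK stand at successive steps of sphingolipid breakdown and signalling.

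A level is given below as the log2 of the array signal over the median signal of its array, and differences are on this log2 scale. A clone was called where limma, fitted over all tested clones, gave an adjusted p (Benjamini-Hochberg) under 0.15. The arrays were not of equal quality. Each array was correlated with every other (Spearman), and the median lay between 0.908 and 0.967 on 26 arrays and between 0.161 and 0.896 on 6, which were F-HE membranes 59 and 65, F-LE membrane 62 and L-LE membranes 53, 56 and 68, with none in L-HE. Membrane 59 was the lowest of all, at 0.161, far from the next lowest, membrane 62, at 0.828. The median level of its luciferase control spots was 0.71, against 5.71 to 7.62 on the other arrays. The results that follow are given with all arrays and without membranes 59 and 62, and in places without all 6. In tissue, fewer cells of a type and less RNA per cell cannot be told apart. Summed over 9 hepatocyte markers, the signal was 41.1 to 349 times the array median in F-HE livers, 225 to 436 in F-LE, 249.8 to 442 in L-HE and 249 to 426 in L-LE, with medians of 299, 308, 376 and 367 in this order. Marker sums, here and below, are given with all arrays only, so that their F-HE ranges include membrane 59. Without membranes 59 and 62 the lowest F-HE level rose from 0.49 to 5.49 for the marker ITIH3 and from -1.40 to 3.93 for PLMN. F minus L over both diets was below 0 for 9 of these 9 markers (median -0.43, against 0.0046 over all tested clones) and for 6 of 9 without membranes 59 and 62 (median -0.24), with none called. HE minus LE over both lines was below 0 for 6 of 9 (median -0.27, against -0.01 over all tested clones). Without membranes 59 and 62 it was below 0 for 5 of 9 (median -0.018), and 1 was called lower (0.67% of all clones were called for diet). The diet median was -0.52 in F livers, or -0.12 without these membranes, and 0.052 in L livers. All of these markers were clones that the study's own tests had picked, most of them for line. Their line shift, and the diet shift of those picked for diet, are therefore not independent evidence of a difference in hepatocytes. CERK and ENPP7, described below, also had line differences below 0, and the part of the marker line shift in them was not tested. The part of the marker diet shift in the diet differences described below was not tested either.

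The 4 clones differed in how they met diet and line. PI42B was lower on the HE diet, and it was the 1 member called, among 19 of 7763 clones called for diet in either direction (0.245%). PIG-F was lower on the HE diet by a smaller amount and was not called. ENPP7 had an uncalled diet difference in F livers and, with all arrays, was close to level between diets in L livers. Without the 6 arrays of low correlation its estimates in the lines were closer, at -0.21 in F livers and -0.15 in L livers. For CERK the estimate was lower in the F line, also without a call, and the diets did not clearly differ. No clone on the array was called for line (0%) or for the line by diet interaction (0%) with all arrays. An unadjusted limma p under 0.05 was met by 283 clones for diet (3.65%), 258 for line (3.32%) and 523 for the interaction (6.74%). With no effect on any clone, a share near 0.05 would meet it. A two-way ANOVA at p under 0.01 picked 53 clones (0.683%) for line and also for the interaction, below the share of 0.01 that no effect would give. For diet it picked 1.11% of clones, close to that share. With array weights limma called 0.155% of clones for line and 0.0515% for the interaction.

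**Figure D1:**
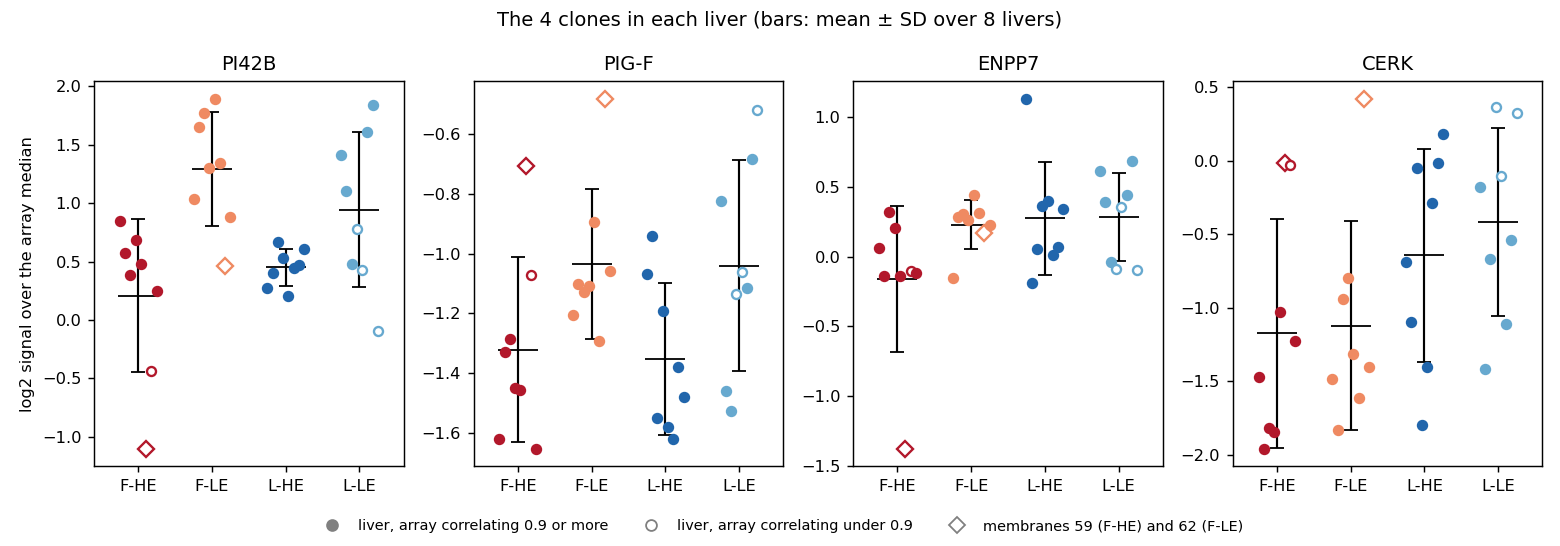
Levels of the 4 clones in each liver, as log2 signal over the array median, for the F-HE, F-LE, L-HE and L-LE groups (points: livers; bars: mean and SD over 8 livers; hollow points: the 6 arrays with a median correlation under 0.9; diamonds: membranes 59 and 62). For PI42B 7 of 8 F-LE livers lay above every F-HE liver, and the CERK values of the hollow points all lay at the top of their groups.

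PI42B belongs to the type II phosphatidylinositol-phosphate kinases, which make phosphatidylinositol 4,5-bisphosphate and keep the level of the 5-monophosphate down. In the F line its lowest, median and highest levels were -1.10, 0.43 and 0.85 in F-HE livers and 0.46, 1.32 and 1.89 in F-LE livers. In the L line they were 0.20, 0.46 and 0.67 in L-HE livers and -0.10, 0.94 and 1.84 in L-LE livers. Of the 8 F-LE livers, 7 lay above every F-HE liver, and of the 8 L-LE livers 5 lay above every L-HE liver. The L-HE group was narrow (SD 0.16) next to L-LE (SD 0.66), F-HE (0.65) and F-LE (0.48).

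Averaged over the lines, PI42B fell by 0.79 on the HE diet (SE 0.184, adjusted p = 0.0799 by limma, rank 15 of 7763), a linear change of -42.1%. In the F line the difference was -1.08 (SE 0.26, adjusted p = 0.242) and in the L line -0.49 (SE 0.26, adjusted p = 0.769), so that neither was called alone (0.0515% of clones were called in F and 0% in L). The difference between these 2 diet effects was -0.59 (SE 0.367, 95% interval -1.34 to 0.16, adjusted p = 0.548), and the lines were thus not shown to respond differently. An exact permutation test of single livers gave p = 0.00124 in the F line and p = 0.0622 in the L line (two-sided, 8 livers against 8, not adjusted).

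Without membranes 59 and 62 the F-HE livers ran between -0.43 and 0.85 (median 0.48) and the F-LE livers between 0.88 and 1.89 (median 1.34). The 2 groups then no longer overlapped, which was the case for 13 of the 7763 clones in that direction (0.167%). The diet effect over both lines was -0.75 (SE 0.157, adjusted p = 0.0174, with 0.67% of clones called), and that within the F line was -1.01 (SE 0.229, adjusted p = 0.103), now called (0.167% of clones). The exact permutation p in the F line was 0.000583, the smallest that 7 livers against 7 allow. Membrane 62, at 0.46, held the only F-LE liver that had not lain above every F-HE liver. Without membrane 62 alone the F line effect was -1.20 (adjusted p = 0.088), which was called (0.103% of clones). Without membrane 59 alone it was smaller, at -0.90 (adjusted p = 0.29), and was not called (0% of clones). Without all 6 arrays of low correlation, the effect was -0.86 over both lines (adjusted p = 0.000328, with 0.953% of clones called). It was -0.88 in F livers (adjusted p = 0.0424, 0.425% called) and -0.84 in L livers (adjusted p = 0.0728, 0.206% called), and the interaction estimate was then -0.037 (SE 0.254). L-LE membranes 53, 56 and 68, left out here, had PI42B levels of 0.77, 0.42 and -0.10, against 0.48 to 1.84 in the other L-LE livers.

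Leaving out single livers moved the diet effect of PI42B between -0.86 and -0.69. The call was lost without L-LE membrane 66, 60 or 19 or F-LE membrane 54 or 24, each time with an adjusted p between 0.151 and 0.160. Leaving out whole tanks, it was lost for 7 of 12 tanks, with adjusted p-values up to 0.382. Between the lines, PI42B was not called: F minus L was 0.053 over both diets (SE 0.184, 95% interval -0.32 to 0.43), and 0.21 without membranes 59 and 62 (95% interval -0.11 to 0.53). By diet the estimates had opposite signs, at 0.35 on LE (95% interval -0.18 to 0.88) and -0.24 on HE (95% interval -0.77 to 0.29). Without membranes 59 and 62 they were 0.47 on LE (95% interval 0.015 to 0.92, adjusted p = 0.247) and -0.054 on HE (adjusted p = 1), and without all 6 arrays 0.12 on LE and 0.084 on HE.

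**Figure D2:**
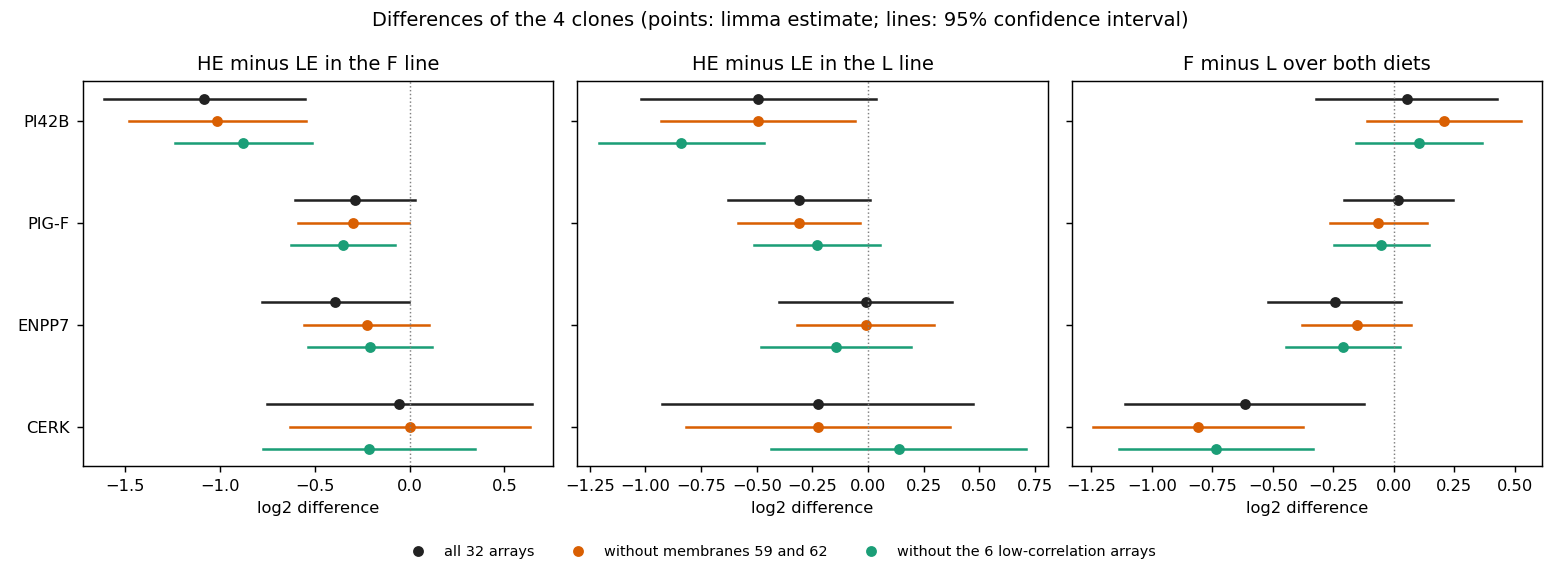
Differences of the 4 clones by limma, as log2 (points) with 95% confidence intervals (lines), for HE minus LE in the F line, HE minus LE in the L line and F minus L over both diets. Black is all 32 arrays, orange is without membranes 59 and 62 and green is without the 6 arrays of low correlation. PI42B was below 0 in the F line under all 3 settings, at -1.08, -1.01 and -0.88.

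PIG-F takes part in adding the phosphoethanolamine that links a GPI anchor to its protein. Its lowest, median and highest levels were -1.65, -1.39 and -0.71 in F-HE livers and -1.29, -1.10 and -0.48 in F-LE livers. In the L line they were -1.62, -1.43 and -0.94 in L-HE livers and -1.53, -1.09 and -0.52 in L-LE livers. The groups overlapped in both lines, although 5 of 8 F-HE livers lay below every F-LE liver and 3 of 8 L-HE livers below every L-LE liver. The highest liver of F-HE was on membrane 59, that of F-LE on membrane 62 and that of L-LE on membrane 68, all arrays of low correlation. PIG-F was also among the dimmest 25% of the tested clones by mean level.

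The diet effect of PIG-F was -0.30 over both lines (SE 0.11, 95% interval -0.52 to -0.07, adjusted p = 0.94), a linear difference of -18.7%. It had nearly the same size in both lines, at -0.29 in F (SE 0.156) and -0.31 in L (SE 0.156), with an interaction of 0.023 (SE 0.221). Without membranes 59 and 62 it was again -0.30 with a smaller error (SE 0.098, adjusted p = 0.359), and without all 6 arrays -0.29 (adjusted p = 0.322). The exact permutation p of single livers was 0.0601 in the F line, 0.0654 for the L line and 0.00758 for the F line without membranes 59 and 62. PIG-F had the least spread of the 4 clones, with a residual SD of 0.295 within groups, and 14.1% of the tested clones had a smaller one. Its line difference was 0.019 with all arrays (95% interval -0.21 to 0.24) and -0.064 without membranes 59 and 62 (95% interval -0.26 to 0.14), so that its direction was not settled.

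Tanks, not fish, were given the diets, and tank means were therefore compared as well. The PI42B means of the 3 tanks were 0.40, 0.21 and 0.02 in F-HE and 1.29, 1.09 and 1.60 in F-LE. They were 0.36, 0.56 and 0.40 in L-HE and 0.81, 0.60 and 1.31 in L-LE. Each HE tank thus lay below each LE tank of its line, although L-HE tank 2 came close to L-LE tank 2. The PIG-F means showed the same order, at -1.42, -1.35 and -1.20 in F-HE against -1.15, -0.94 and -1.002 in F-LE, and at -1.39, -1.32 and -1.36 in L-HE against -0.94, -1.10 and -1.11 in L-LE.

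**Figure D3:**
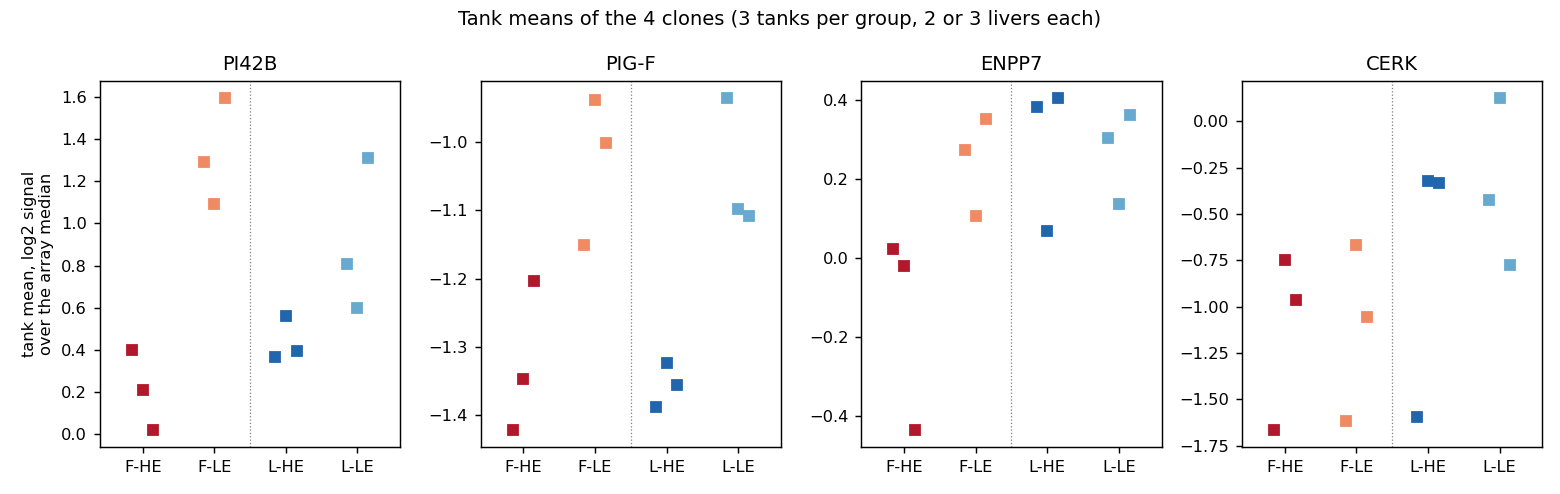
Tank means of the 4 clones, as log2 signal over the array median, with 3 tanks in each of the F-HE, F-LE, L-HE and L-LE groups. For PI42B and PIG-F every HE tank lay below every LE tank of the same line, and for ENPP7 this held in the F line.

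Such an order of the tanks in both lines was met by 37 of the 7763 clones (0.477%) with all arrays and by 46 (0.593%) without membranes 59 and 62. Exchanging the diets among the tanks of a line gave an exact permutation p of 0.005 for PI42B (mean difference -0.79) and for PIG-F (-0.30), with and without membranes 59 and 62, which is the smallest that the 400 arrangements allow (two-sided, not adjusted). For ENPP7 the same exact permutation test gave p = 0.14 (-0.19) and for CERK p = 0.555 (-0.20). In a limma fit of the tank means over all clones, the PI42B effect of -0.79 had an adjusted p of 0.288.

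ENPP7 is the alkaline sphingomyelinase, known in mammals mainly from the gut wall and bile, where it digests dietary sphingomyelin. Its lowest, median and highest levels were -1.38, -0.11 and 0.32 in F-HE livers and -0.15, 0.28 and 0.44 in F-LE livers. In the L line they were -0.19, 0.21 and 1.14 in L-HE livers and -0.09, 0.38 and 0.69 in L-LE livers. All 4 groups overlapped, and 2 livers stood far from the rest, F-HE membrane 59 at -1.38 and L-HE membrane 13 at 1.14. The next F-HE liver was at -0.14 and the next L-HE liver at 0.40.

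In the F line ENPP7 differed by -0.39 between the diets (SE 0.191, adjusted p = 0.751), and by -0.23 without membranes 59 and 62 (SE 0.161, adjusted p = 0.986). The exact permutation p was 0.0211 with all arrays and 0.0507 without these 2 membranes. The 3 F-HE tanks lay below the 3 F-LE tanks, at 0.02, -0.02 and -0.44 against 0.27, 0.11 and 0.35, an order shared by 5.55% of clones. In the L line the difference was -0.010 (SE 0.191, 95% interval -0.40 to 0.38, adjusted p = 0.989), and it was -0.13 without membrane 13. The difference between the 2 diet effects was -0.38 (SE 0.27, adjusted p = 0.548) with all arrays and -0.22 (SE 0.221) without membranes 59 and 62. Without all 6 arrays of low correlation, HE minus LE was -0.21 in F livers (SE 0.16) and -0.15 in L livers (SE 0.164). The difference between the diet effects was then -0.062 (SE 0.229).

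Between the lines ENPP7 differed by -0.24 (F minus L over both diets, SE 0.135, adjusted p = 0.999) and by -0.15 without membranes 59 and 62 (SE 0.11). By diet it was -0.44 on HE (SE 0.191, adjusted p = 0.597) and -0.054 on LE (SE 0.191, adjusted p = 0.996). Without membranes 59 and 62 it was -0.26 on HE (SE 0.156) and -0.045 on LE (SE 0.156). Without all 6 arrays of low correlation it was -0.24 on HE (SE 0.155) and -0.18 on LE (SE 0.168), and none of these was called. On the HE diet, 4 of 8 L-HE livers lay above every F-HE liver. Both intestinal or renal epithelium markers tested (AMNLS and CAN9) were measured in all groups, with a summed signal of 4.05 to 8.37 times the array median in F-HE livers, 4.95 to 9.46 in F-LE, 5.19 to 7.28 in L-HE and 3.45 to 6.47 in L-LE. HE minus LE was -0.23 for AMNLS and -0.17 for CAN9 in F livers, and 0.36 for AMNLS and 0.37 for CAN9 in L livers, with interactions of -0.58 (SE 0.341, adjusted p = 0.548) and -0.54 (SE 0.229, adjusted p = 0.548). F minus L on LE was 0.42 for AMNLS and 0.58 for CAN9. With all arrays neither was called for diet, line or interaction, but without membranes 59 and 62 CAN9 was called higher in F-LE than in L-LE livers (0.64, SE 0.156, adjusted p = 0.141, with 0.271% of clones called). The study's own tests had picked both markers for line, so that this call is not independent evidence. The part of these markers in the ENPP7 values was not tested.

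CERK makes ceramide 1-phosphate, a lipid tied in mammals to membrane traffic and to the release of arachidonic acid. On the LE diet its lowest, median and highest levels were -1.83, -1.36 and 0.42 in F-LE livers and -1.41, -0.36 and 0.36 in L-LE livers. On the HE diet they were -1.96, -1.35 and -0.02 in F-HE livers and -1.79, -0.49 and 0.18 in L-HE livers. The lines overlapped on both diets. CERK was the most variable of the 4 clones, with a residual SD of 0.714 within groups against a median of 0.463 over all tested clones.

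The 6 arrays of low correlation were all near the top for CERK. On them it lay between -0.11 and 0.42, with a median of 0.15, and on the other 26 arrays it lay between -1.96 and 0.18, with a median of -1.17. F-LE membrane 62 was at 0.42 while the other F-LE livers ran between -1.83 and -0.80, and F-HE membranes 59 and 65 were at -0.02 and -0.03 while the other F-HE livers ran between -1.96 and -1.03. PIG-F was likewise high on these arrays (median -0.88 against -1.29 on the others), and PI42B (0.16 against 0.67) and ENPP7 (-0.09 against 0.28) were low. The same arrays had a smaller SD over clones, 1.42 to 1.62 against 1.71 to 1.87, and the medians of whole clone libraries lay nearer to 0 on them: that of the library of PI42B was 0.61 against 1.02 and that of the library of CERK and PIG-F was -0.52 against -0.96. The part of array quality in each clone's level was not tested beyond leaving these arrays out, weighting them or centring each library.

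**Figure D4:**
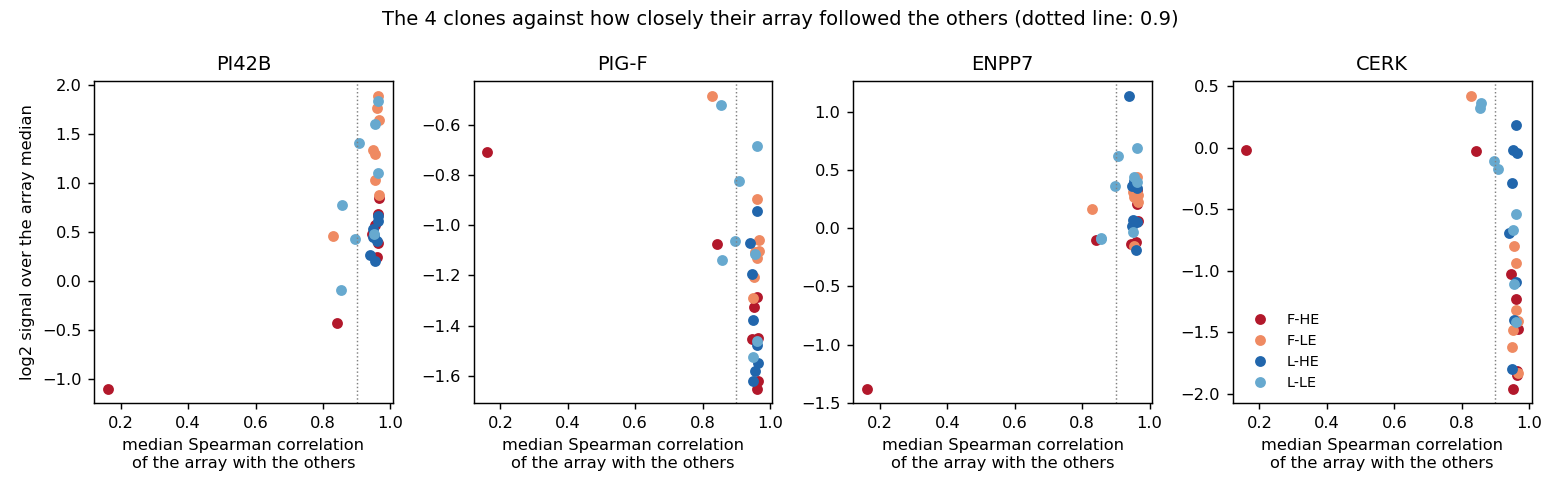
Level of each clone (vertical axis, log2 signal over the array median) against the median Spearman correlation of its array with the other arrays (horizontal axis), with the dotted line at 0.9. Points are the 32 arrays, coloured by group. Left of the line CERK lay between -0.11 and 0.42.

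Over both diets CERK differed by -0.62 between the lines (F minus L, SE 0.242, adjusted p = 0.999, rank 76), a linear difference of -34.8%. Without membranes 59 and 62 the difference was -0.81 (SE 0.213, adjusted p = 0.444, rank 10) or -42.9%, and without all 6 arrays it was -0.74 (SE 0.195, adjusted p = 0.33), with no call in any of the 3 (0.0129% of clones were called for line without membranes 59 and 62, and 0% in the other settings). By diet it was -0.70 on LE (exact permutation p = 0.0581) and -0.53 on HE (exact permutation p = 0.176). Without membranes 59 and 62 these were -0.92 (exact permutation p = 0.0073) and -0.70 (exact permutation p = 0.0789). Both membranes held F livers, and the L-LE arrays of low correlation, also near the top for CERK, were kept in. Without all 6 arrays the limma estimates were -0.56 on LE (SE 0.287) and -0.91 on HE (SE 0.264), and neither was called. The larger estimate was then on HE. The exact test of tank means gave p = 0.1 with all arrays and p = 0.04 without the 2 membranes.

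Tanks differed widely for CERK. Their means were -1.67, -0.75 and -0.96 in F-HE and -1.60, -0.32 and -0.33 in L-HE, and -1.62, -0.67 and -1.06 in F-LE and -0.42, 0.13 and -0.77 in L-LE. L-HE tank 1 therefore lay with the F line tanks, and its 2 livers were the lowest of L-HE, at -1.79 and -1.40. The diet made no clear difference, with HE minus LE at -0.14 over both lines (SE 0.242, 95% interval -0.63 to 0.35), -0.053 in the F line (SE 0.343) and -0.23 in the L line (SE 0.343).

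The members were also compared with each other over livers, after the group means had been subtracted, in 6 pairs. ENPP7 and PI42B went together (Pearson r = 0.59, permutation p = 0.00095, adjusted 0.0057; Spearman rho = 0.60, permutation p = 0.00055, adjusted 0.0033; n = 32 livers), and r was 0.57 without the 2 livers farthest from the ENPP7 median. It was 0.42 without membranes 59 and 62 (permutation p = 0.0178, adjusted 0.107) and 0.32 on the 26 arrays of high correlation (permutation p = 0.0896). With the 2 livers then farthest from the ENPP7 median also left out, r was 0.61 in the first setting (permutation p = 0.00478, not adjusted). In the second it was 0.56 (permutation p = 0.0149, not adjusted). PI42B and CERK went in opposite directions (r = -0.53, permutation p = 0.00261, adjusted 0.00783; rho = -0.44, permutation p = 0.0143, adjusted 0.0428), with r = -0.41 without the 2 livers farthest from the PI42B median. That relation was -0.34 without membranes 59 and 62 (permutation p = 0.0746) and 0.13 on the 26 arrays (permutation p = 0.502). It was thus not seen once the arrays of low correlation were left out, and their part in it was not tested.

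Of the other pairs, PIG-F and CERK had r = 0.43 (permutation p = 0.0189, adjusted 0.0377; rho = 0.29, permutation p = 0.135, adjusted 0.202) and r = 0.21 without the 2 livers farthest from the PIG-F median. ENPP7 and CERK had r = -0.40 (permutation p = 0.0323, adjusted 0.0484; rho = -0.42, permutation p = 0.0235, adjusted 0.047), and PIG-F and PI42B r = -0.39 (permutation p = 0.051, adjusted 0.0613). ENPP7 and PIG-F had r = -0.17 (permutation p = 0.387). On the 26 arrays of high correlation 2 of these pairs had the opposite sign: r was 0.42 for ENPP7 with PIG-F (permutation p = 0.0705, adjusted 0.179; rho = 0.48, permutation p = 0.0296, adjusted 0.178) and 0.42 for PIG-F with PI42B (permutation p = 0.0859, adjusted 0.179; rho = 0.34, permutation p = 0.127). There PIG-F with CERK had r = -0.078 and ENPP7 with CERK r = -0.095. With no further liver left out, no pair had an adjusted permutation p under 0.05 without membranes 59 and 62 or on the 26 arrays. Leaving out the 2 livers farthest from the ENPP7 median as well changed r for ENPP7 with PIG-F and CERK. Without membranes 59 and 62 it was 0.23 with PIG-F (permutation p = 0.358) and -0.41 with CERK (permutation p = 0.0407). On the 26 arrays it was 0.62 with PIG-F (permutation p = 0.00386) and -0.21 with CERK (permutation p = 0.336), none of them adjusted. Livers of 1 tank shared their water and feed.

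Among 283 other clones with a name, each member was set against those that followed it most closely over the 32 livers within groups, by Spearman correlation and with no test. PI42B was followed by ERMAP, an erythroid membrane protein, at 0.95, and by GDPD5, a glycerophosphodiester phosphodiesterase, at 0.94, which ranked 1 and 2 among all tested clones. GMEB2, a transcription factor that modulates glucocorticoid responses in mammals, came next at 0.90. These correlations were 0.94, 0.92 and 0.87 without membranes 59 and 62 and 0.92, 0.89 and 0.81 on the 26 arrays of high correlation. All 3 came from the same clone library as PI42B, as did 16 of the 20 clones most like it. That library made up 35.2% of the tested clones. ERMAP and GDPD5 lay on the same plate of it, and PI42B lay on another. The correlation of PI42B with a clone of its own library had a median of 0.29, against -0.22 for clones of other libraries, and on the 26 arrays these medians were 0.06 and 0.01.

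**Figure D5:**
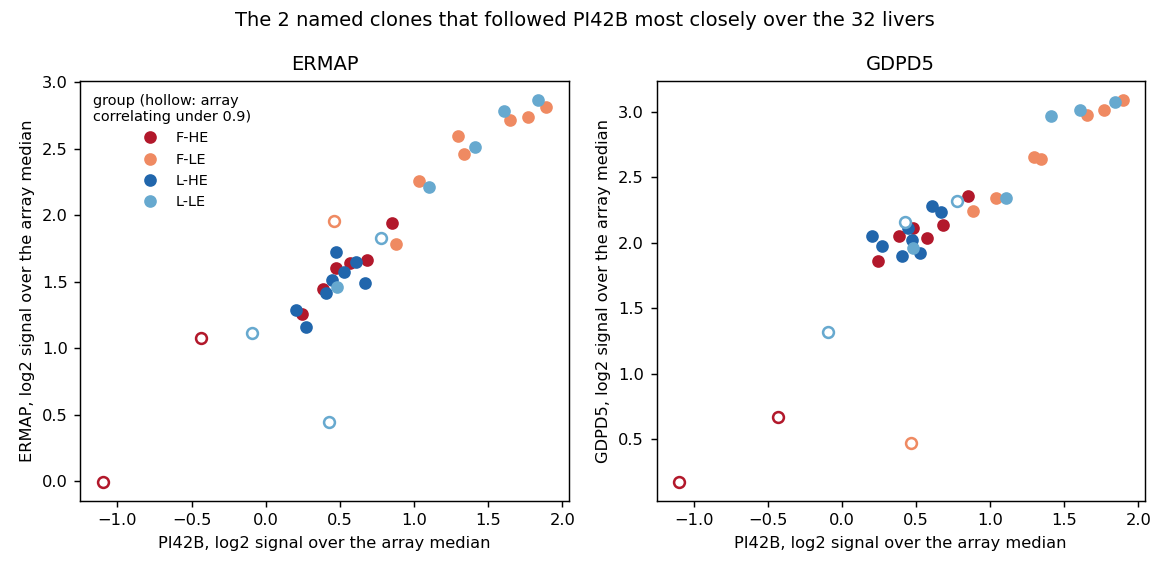
ERMAP (left) and GDPD5 (right) against PI42B in the 32 livers, each as log2 signal over the array median, coloured by group (hollow points: arrays with a median correlation under 0.9). The livers ran along 1 line in each panel, with HE livers at the lower end and most LE livers at the upper end. Away from the line lay hollow points, such as F-LE membrane 62 with GDPD5 at 0.47.

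ERMAP itself differed by -0.76 between the diets (SE 0.194, adjusted p = 0.165), and by -0.70 without membranes 59 and 62 (adjusted p = 0.0796), where it was called. The other 2 erythrocyte markers tested did not move that way: B3AT, the band 3 anion exchanger of red cells, differed by 0.35 (SE 0.189, adjusted p = 1) and RHAG, the Rhesus-associated glycoprotein, by 0.03 (SE 0.161, adjusted p = 1). RHAG and PI42B had a correlation of -0.77 over livers and B3AT and PI42B one of 0.30. Without membranes 59 and 62 these were -0.60 and 0.05. With every array of low correlation left out they were -0.51 and -0.51, so that the sign for B3AT turned. RHAG levels were low, with group medians from -2.10 to -1.69. The summed signal of the 3 markers ran from 3.97 to 13.6 times the array median in F-HE livers, 10.4 to 14.0 in F-LE, 9.26 to 15.7 in L-HE and 5.59 to 14.3 in L-LE. Of the 2 muscle markers, parvalbumin (PRVA) fell by 0.53 on HE (SE 0.12, adjusted p = 0.0709) while titin differed by -0.31 (SE 0.412, adjusted p = 1), and their summed signal was 15.2 to 32.6 in F-HE, 29.5 to 38.8 in F-LE, 24.8 to 37.1 in L-HE and 33.3 to 42.2 in L-LE. The study's own tests had picked ERMAP, B3AT, PRVA and titin for diet and RHAG for line. The diet differences of ERMAP, B3AT, PRVA and titin are therefore not independent evidence. The part of red cells or muscle in the PI42B difference was not tested.

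The other members had looser followers. For ENPP7 they were MCM6Z, a subunit of the replicative helicase, at 0.80, RAB3A, a GTPase of secretory vesicles, at 0.67 and VA0D, a subunit of the vacuolar proton pump, at 0.65. MCM6Z lay on the same plate of the same library as ENPP7. For PIG-F they were ACS2L, a mitochondrial acetyl-CoA synthetase, at 0.65, the egg coat protein ZP3 at 0.60 and the peptidase TPP2 at 0.55. For CERK they were the RNA helicase DDX41 at 0.77, the adhesion protein ADIP at 0.73 and the unconventional myosin MYO1E at 0.72. DDX41 ranked 66 among all tested clones, behind clones outside the named set. With the arrays of low correlation left out, all of these correlations were smaller. They were then 0.70, 0.57 and 0.44 for the ENPP7 followers in the order given, and 0.47, 0.53 and 0.34 for those of PIG-F. For the CERK followers they were 0.62, 0.41 and 0.43.

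Other proteins that bind or turn over membrane lipids were taken from the study's named clones, 11 in all and all tested. The study's own tests had picked PKHA5, SNX7, ZFYV9, GDPD5 and SHLB2 for diet and the rest for line. Their differences for that factor, also when set against all tested clones, are therefore not independent evidence. On the HE diet 1 of the 11 was called, and it was lower (0.232% of all clones were called lower), while 7 of 11 estimates lay below 0 and their median was -0.20, against -0.01 over all tested clones. The 1 called was PKHA5, whose pleckstrin homology domain binds phosphoinositides. Its lowest, median and highest levels were -0.05, 2.41 and 3.10 in F-HE livers and 2.81, 3.36 and 4.12 in F-LE livers, and 2.15, 2.38 and 2.68 in L-HE livers and 2.01, 2.94 and 4.09 in L-LE livers. It fell by 0.95 (SE 0.225, adjusted p = 0.0808), and by 0.82 without membranes 59 and 62 (SE 0.173, adjusted p = 0.0174), and followed PI42B over livers with a correlation of 0.85.

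GDPD5, which in mammals frees choline from glycerophosphocholine, differed by -0.54 (SE 0.225, adjusted p = 1) and by -0.58 without membranes 59 and 62 (SE 0.158, adjusted p = 0.143), and was called only in the second. SHLB2, an endophilin that bends membranes, differed by -0.55 (SE 0.161, adjusted p = 0.465), and SNX7, a sorting nexin that binds phosphoinositides, by -0.53 (SE 0.163, adjusted p = 0.546). The other 7, ZFYV9, FYCO1, FARP1, NLTP, ABCAC, SHLB1 and CAV2, had diet differences between -0.36 and 0.20. For line over both diets none of the 11 was called. The caveolar coat protein CAV2 had the largest estimate above 0, at 0.37 (F minus L, SE 0.108, adjusted p = 0.999), and the lipid transporter ABCAC the largest below 0, at -0.54 (SE 0.39) with all arrays and at -0.15 (SE 0.107) without membranes 59 and 62.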

How the data were processed

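Liver RNA of 32 trout was labelled with 33P and hybridized to 1 nylon membrane per liver. The table as deposited holds log10 signals: the authors corrected each one for the DNA in its spot and divided it by the array median before taking logs. Spots excluded by the authors are written as a bare 0 (41354 cells) and were treated as missing. Values were converted to log2. The 7763 clones with at least 5 values per group, of 9023, were fitted together by limma 3.58.1 in R 4.3.3 with a mean per group, and a false discovery rate (Benjamini-Hochberg) under 0.15 made a call, as in one of the study's tests. Exact permutation tests compared livers (8 against 8) or tank means, and correlations had 100000 permutations within groups (Python 3.11.15, scipy 1.17.1). Outlying livers were sought by the ratio of Dixon in 16 groups of 8. The fit and tests were tested on simulated data. The paper describes fewer arrays per group than the 8 in the table. Which livers entered its tests is not given, so all 8 per group were used. The number of arrays limits the precision.

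Alternatives were a threshold of 0.05, two-way ANOVA at p under 0.01, quantile normalization, re-centred arrays, clones measured on all arrays, the dimmest 25% left out, bare zeros kept, a robust variance trend, tank as random or fixed block, tank means, array weights, membrane number, and arrays or tanks left out. Centring within clone libraries was added after seeing the data. Members, gene lists, alternatives and the 6 arrays of low correlation were chosen with earlier results of these data known. Named clones were the 4 members, 11 membrane lipid proteins, 16 marker clones and the 3 named clones most like each member. All of them had been picked by the study's own tests for diet or line. Clone names are the study's best protein matches. Its lists hold 313 tested clones, some without a protein name, and 283 named clones could be set against each member. A cDNA clone does not separate closely related copies of a gene, and no clone sequence was used here.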

Additional observations from a re-analysis of the deposited data

Results flagged for a closer look

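In 4 of the 16 sets of 8 livers (4 clones in 4 groups), the highest or lowest liver stood apart from the others by more than Dixon's critical value, a ratio of gap to range of 0.526. Chance marks about 1 set in 20. For ENPP7 these were the lowest F-HE liver, on membrane 59 (-1.378, ratio 0.728), the lowest F-LE liver, on membrane 5 (-0.1548, ratio 0.54), and the highest L-HE liver, on membrane 13 (1.136, ratio 0.553). For CERK it was the highest F-LE liver, on membrane 62 (0.4209, ratio 0.54). Membranes 59 and 62 are among the 6 arrays of low correlation, and membranes 5 and 13 are not.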

How the results depend on the processing

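Of 305 values recomputed under an alternative, 255 kept their direction and side of the threshold or, for counts, stayed within 1.5 times. The cause of the changes below was not tested. The PI42B diet effect was below 0 throughout, with an adjusted p from 0.000328 to 0.288 over 15 alternatives. It was not called at a threshold of 0.05 (-0.79) or with means per tank (-0.79). Within the F line it was called without membranes 59 and 62 (-1.01) and without membrane 62 alone (-1.20), but not without membrane 59 alone (-0.90). The PIG-F diet effect was called by ANOVA (-0.30) and with array weights (-0.33, adjusted p = 0.07), and the CERK line effect with array weights (-0.80, adjusted p = 0.1). Exact permutation tests fell under 0.05 without membranes 59 and 62 for PIG-F diet in F livers (-0.30), CERK line on LE (-0.92) and CERK line over tanks (-0.74), and no longer did for ENPP7 diet in F livers (-0.23).

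Of the 7763 clones, 0.245% were called for diet in the fit reported, 0.129% at a threshold of 0.05, 1.11% by ANOVA, 0% with means per tank, 1.34% with array weights, 0.67% without membranes 59 and 62, 0.953% without the 6 arrays and 0.438% with membrane number as a covariate. For line these were 0.683% by ANOVA, 0.155% with array weights and 0.0129% without membranes 59 and 62, and for the interaction 0.683% by ANOVA, 0.0515% with array weights and 0.0129% with a tank block, against 0% for both.

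Signs turned as follows, for effects that were not called. PI42B F minus L was -0.010 after quantile normalization. PIG-F F minus L was -0.035 with array weights, -0.064 without membranes 59 and 62 (-0.072 on LE, -0.057 on HE, -0.055 over tanks) and -0.052 without the 6 arrays. The PIG-F interaction was -0.14 after quantile normalization, -0.072 with weights, -0.12 without the 6 arrays, -0.026 with the covariate and -0.22 with centred libraries. The CERK interaction was -0.50 with weights, -0.35 without the 6 arrays, -0.057 with the covariate and -0.067 with centred libraries. CERK diet was 0.099 with the covariate and, in the F line without membranes 59 and 62, 0.0017. Pearson r of ENPP7 with PIG-F was 0.19 without membranes 59 and 62. Other correlations kept their sign but had an unadjusted permutation p above 0.05: without membranes 59 and 62 r was -0.27 for ENPP7 with CERK, -0.34 for PI42B with CERK and 0.18 for PIG-F with CERK, and without the 2 extreme livers -0.33 for ENPP7 with CERK and 0.21 for PIG-F with CERK.

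Leaving out 1 liver or tank at a time moved the PI42B diet effect between -0.86 and -0.68 (F line -1.20 to -0.90) and its line effect between -0.021 and 0.16. PIG-F line ran from -0.025 to 0.056 (HE -0.057 to 0.089, LE -0.072 to 0.081) and its interaction from -0.064 to 0.10. CERK diet ran from -0.29 to 0.019 (F line -0.22 to 0.17) and its interaction from -0.14 to 0.47. ENPP7 diet in the L line ran from -0.13 to 0.056 and ENPP7 F minus L on LE from -0.11 to 0.0038. The clones called were 0.0773% (without F-HE tank 1) to 0.554% (without F-HE tank 3, which holds membrane 59) for diet and 0% to 0.0129% for line and for the interaction.

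Tank numbers recur in each group without the labels tying them together. With tank number as a replicate block the PI42B diet effect was -0.79 (adjusted p = 0.102) with 0.271% of clones called for diet, and no member's call changed. PIG-F was the 1 member among the dimmest 25% of clones.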
